A study of Mus musculus with 12 samples.

Results

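The 34 genes described here encode the enzymes, carriers and regulators of fatty acid oxidation and ketone body use. They were chosen by symbol, and all 34 were found among the 43279 genes of the deposited expression table. They were measured in haematopoietic stem cells, the bone marrow cells from which all blood cells descend, in mice with and without Osmr. Osmr encodes the receptor chain that pairs with gp130 to receive oncostatin M. The wild-type group was naive adult C57BL/6 mice and the other group was naive adult Osmr-/- mice, and the labels give no age in weeks, sex or substrain. Marrow came from the femur, the tibias and the ilium, and 1000 cells per mouse were sorted that carried KIT and SCA1 and lacked lineage markers, FLT3 and CD48. CD150 was stained but is not named in the sort, so the gate holds more than the CD150-positive stem cells alone. Polyadenylated RNA was copied and amplified with the SMART-Seq v4 kit, and 1 library was made per mouse. There were 6 wild-type libraries and 5 Osmr-/- libraries, and the Osmr-/- library numbered 4 was not analysed here.

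Fatty acid oxidation starts when a fatty acid, activated as an acyl-CoA, is passed to carnitine so that it can cross the inner mitochondrial membrane. In the matrix each turn of beta-oxidation removes acetyl-CoA by a dehydrogenation, a hydration, another dehydrogenation and a thiolysis, and the electrons of the first step leave through the electron transfer flavoprotein. Very long and branched chains are first shortened in peroxisomes, and ketone bodies carry acetyl units between tissues. In haematopoietic stem cells, fatty acid oxidation controlled by PPAR receptors is known for its part in stem cell maintenance.

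Values are normalised read counts, that is reads divided by a factor for the library's size. The libraries held between 9.50 and 22.1 M reads, where M is the SI prefix mega. Osmr itself was near 0 in both groups, with mean normalised counts (± SD) of 1.60 ± 2.64 in the 6 wild-type and 0.875 ± 0.856 in the 5 knock-out libraries, so it could not check the labels at this depth. The summed level of 11 marker genes of the sort and of stem cells was 22129 to 30567 in wild type and 24297 to 34085 in the knock-out. The 11 are not all particular to stem cells, so their sum does not measure stem cell content. They include Kit and Ly6a (SCA1) of the sort and genes not named in it, such as Procr and Slamf1 (CD150). Of the 11, 6 had the lower mean in the knock-out. Means in wild type and knock-out were 543 and 323 for Procr and 297 and 139 for Slamf1. For Kit they were 3740 and 4455, for Ly6a 5376 and 6893, and for Ptprc (CD45) 2969 and 4722. Libraries numbered 1 to 3 and 4 to 6 stood apart in both genotypes in earlier results of these data, and the labels name no batch. Each main result is therefore also given within the 2 sets of numbers, which hold 3 wild-type and 3 knock-out libraries, and 3 wild-type and 2 knock-out libraries.

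The levels of the members spanned a wide range. Per kb (1000 bases) of annotated exon, Etfb, the smaller subunit of the electron transfer flavoprotein, was the highest, with a mean (± SD) of 7290 ± 1493 normalised counts in the 6 wild-type and 4857 ± 1887 in the 5 knock-out libraries. Ech1, Etfa and Eci1 followed in wild type, at 2042 ± 823, 1440 ± 675 and 864 ± 252 per kb. The next 5, Acadl, Acat1, Acadm, Acaa2 and Oxct1, lay between 416 ± 83.4 and 586 ± 116 per kb, and neighbours among them differed by less than the larger of their SDs. Acadvl, the very-long-chain dehydrogenase gene, was at 85.9 ± 35.3 per kb, and Hadha, the larger trifunctional protein subunit, at 38.6 ± 10.8. The table of exons gives 58.2% of the bases of Etfb and 42.9% of those of Acadvl also to other genes, and whether the counting used strand is not given in these sources. How reads shared by 2 genes were counted is not given either. The counts of these 2 genes can therefore include reads of their neighbours, or lack shared reads that were given to neither gene. The exon length is the union over all annotated transcripts of a gene, 8730 bases for Hadha and 1164 for Etfb. Where the cells use shorter transcripts, the level per kb is too low, so the order depends in part on the annotation.

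**Figure D1:**
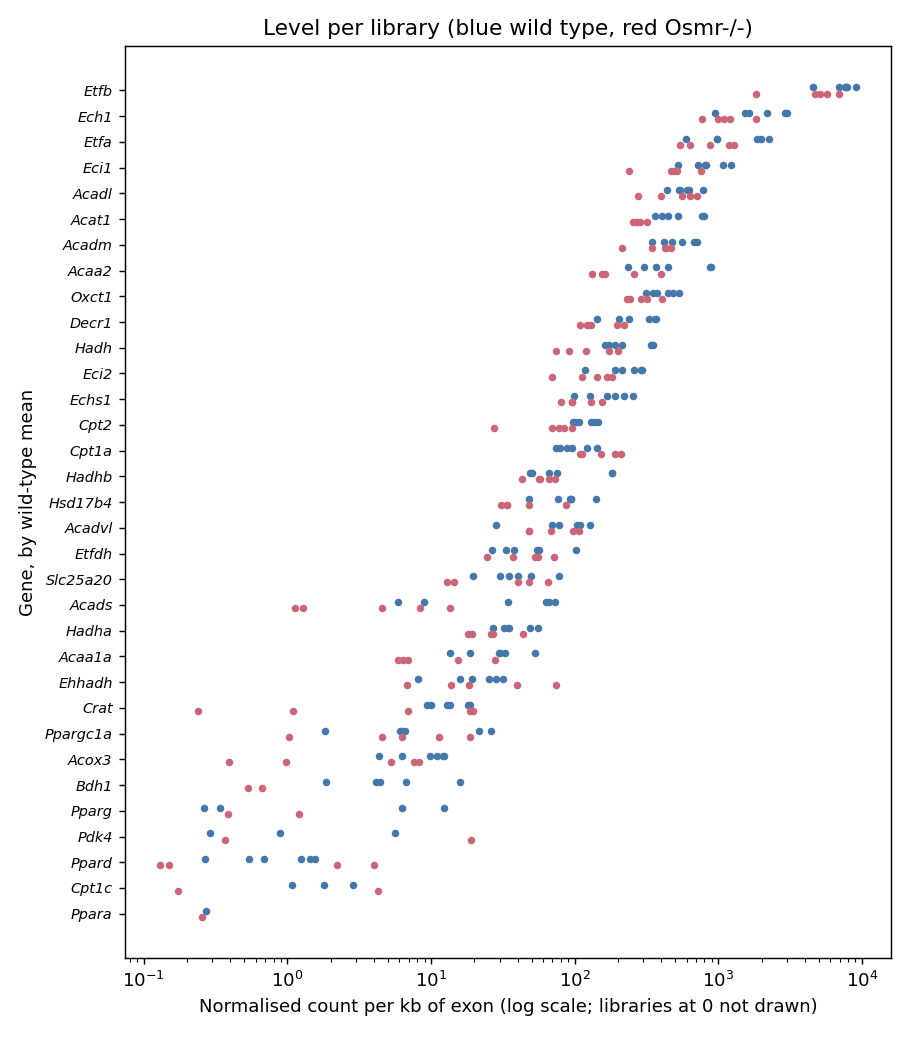
Normalised count per kb of exon (log scale) for the 33 members with any read, ordered by the wild-type mean, with 1 point per library (blue wild type, red Osmr-/-; libraries at 0 are not drawn). Etfb stands at the top, at 7290 per kb in wild type, and the PPAR receptor genes, Pdk4 and Cpt1c lie near the bottom.

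Of the 34 members, 27 reached 10 normalised counts in 5 or more libraries and were tested. The 7 below this limit were the carnitine palmitoyltransferase genes Cpt1b and Cpt1c, the receptors Ppara, Ppard and Pparg, the pyruvate dehydrogenase kinase gene Pdk4 and the ketone body dehydrogenase gene Bdh1. Of the 27 tested members, 25 had a log2 difference (knock-out minus wild type) below 0, where 53.2% of all 13358 genes tested did. Their median difference was -0.68, and that of all genes tested was -0.05. At an unadjusted p under 0.05 in limma, 15 members were lower, against 10.5% of all genes tested, and 1, Cpt1a, was higher, against 7.50%. After adjustment over all genes tested, 0 members were lower, against 0.0150% of all genes, and 0 were higher, against 0.00749%. The edgeR test likewise called 0 members after adjustment in either direction, against 0.0150% of all genes. At an unadjusted p under 0.05 in edgeR, 13 members were lower, against 8.77%, and 1 was higher, against 6.66%. The list leaned to lower values in the knock-out without any single member passing the main limma test, which has no term for the number sets.

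Some other fits called 2 or 3 members lower and none higher. In the authors' deposited table, 2 of 28 members with an adjusted p, Acat1 and Acads, were lower at an adjusted p under 0.05, against 2.79% of its genes. DESeq2 on the recovered reads called 3 of 31, Acat1, Acads and Bdh1, against 2.76%. limma with a term for the number sets called 2, Acat1 and Eci1, against 1.53%. Acat1 was the member in all 3 of these calls. The first 2 of them are both DESeq2 on the same reads, so they are not separate results. In all, 2 tested members had every knock-out library below every wild-type library, Acat1 and Cpt2, against 1.42% of all genes tested.

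Marker genes of other blood cell types were measured beside these values. The summed level of 16 erythroid genes was 55207 to 62371 normalised counts in wild type 1 to 3, 19429 to 22040 in wild type 4 to 6, and 12887 to 19514 in the knock-out. Of the 16 genes, 15 had the lower mean in the knock-out and none was at 0 in all libraries. The exception was Hbb-bt, at 150 to 697 in the wild-type libraries and higher in every knock-out library, at 707 to 1567. The sum was mostly Car2 and Car1. Wild-type and knock-out means were 26493 and 11416 for Car2, and 8168 and 1284 for Car1. The part of the erythroid difference in the members' values was not tested. In bulk RNA, fewer cells of a type and less RNA per cell cannot be told apart. The summed levels of megakaryocyte genes overlapped, at 5615 to 11354 in wild type and 6619 to 10009 in the knock-out. Those of granulocyte and monocyte genes overlapped also, at 9008 to 17381 and 10636 to 26436. The highest knock-out sum was that of knock-out 3, and the other knock-out libraries were at 10636 to 11911. In knock-out 3, S100a8 and S100a9 were at 10780 and 7277. They were at 47.4 to 346 and 5.15 to 125 in the other knock-out libraries. The part of this difference in the members' values of knock-out 3 was not tested. Lymphoid genes summed to 590 to 1744 in wild type and 498 to 626 in the knock-out. Most of this sum was Cd79b, with wild-type and knock-out means of 950 and 453. Of the 9 lymphoid genes, 3 had the lower knock-out mean and 3 were at 0 in all libraries, while Cd79a had means of 6.2 and 42.6. Genes of stroma, endothelium and fat summed to 37.9 to 134 and 105 to 178. Of these 10 genes, 8 had a mean under 10, and Fabp4 was the largest, with means of 36.9 and 104.

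The members were also summarised per library, as the median over the 27 tested members after each gene's mean over 11 libraries was subtracted on the log2 scale. Wild type 1 and 2 were the highest, at 0.88 and 0.69, and wild type 3, 4 and 5 were at 0.16, 0.24 and 0.25. Wild type 6 was at -0.29, within the range of the 5 knock-out libraries, which ran from -0.51 to -0.09. The same median over all genes tested lay between 0.03 and 0.12 in every library. Wild type 1 and 2 had erythroid sums of 56499 and 55207, and the knock-out libraries were low in both measures, with knock-out 2 the highest of them in each. Wild type 3, with the largest erythroid sum, had the 5th largest member median. Wild type 1 and 2 also had the largest library totals, 22.1 and 13.6 M reads, and the lowest levels of the nuclear RNA Malat1, 9975 and 34784 normalised counts. Malat1 ran from 51523 to 230983 in the other wild-type libraries and from 72916 to 173014 in the knock-out. The part of depth, of Malat1 and of the erythroid sum in the member medians was not tested.

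**Figure D2:**
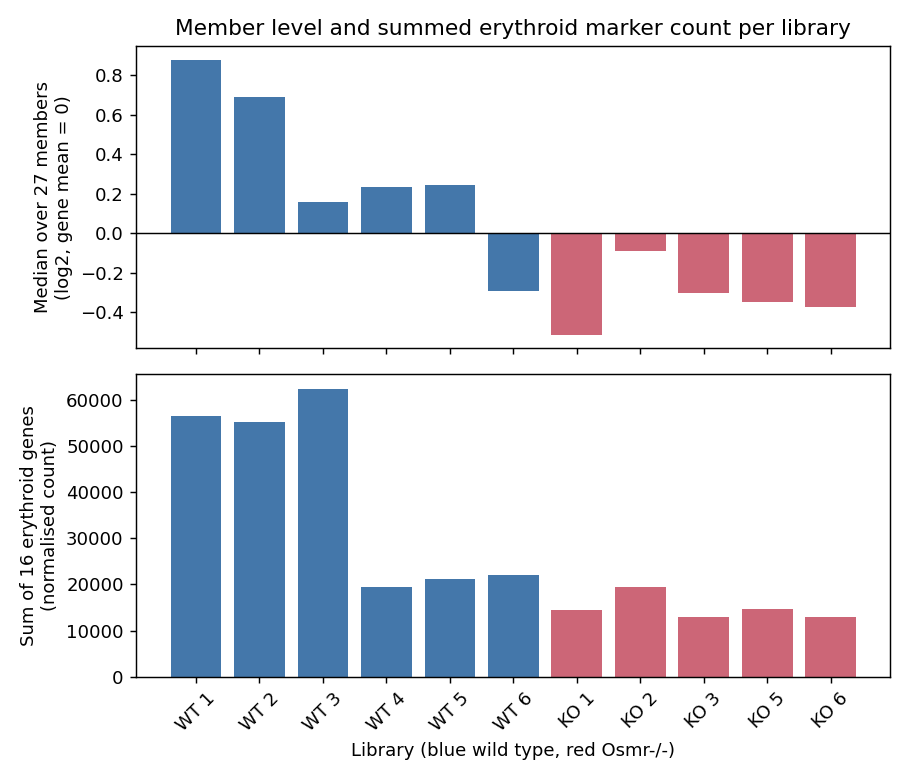
Top, the median over the 27 tested members in each library on the log2 scale, with each gene's mean over 11 libraries at 0, and bottom, the summed normalised count of 16 erythroid genes (blue wild type, red Osmr-/-). Wild type 1 and 2 stand above 0.6 in the top panel, wild type 6 lies with the knock-out libraries, and wild type 1 to 3 stand apart in the bottom panel.

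**Figure D3:**
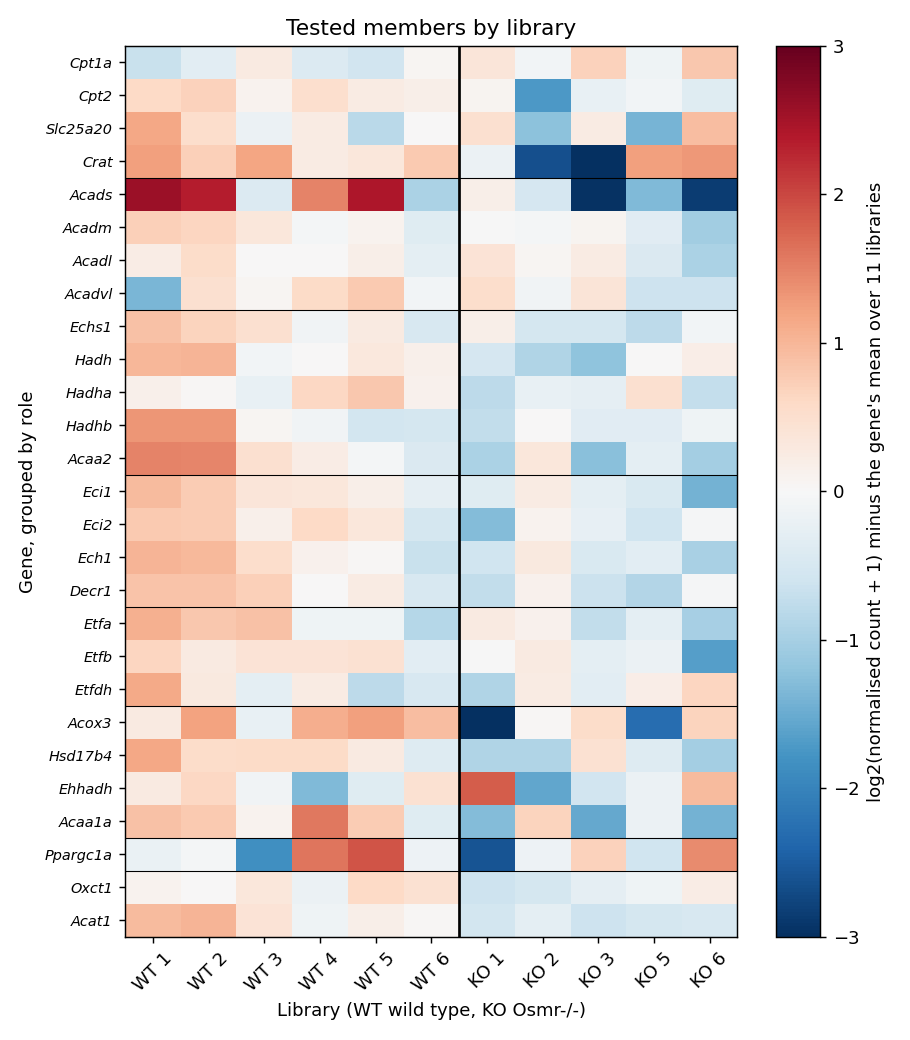
The 27 tested members (rows, grouped by role) in the 11 libraries (columns), as log2(normalised count + 1) minus the gene's mean over the libraries, with colours ending at 3 in either direction. In wild type 1 and 2, 24 and 25 of the rows are above 0, in the knock-out libraries 4 to 12 are, and the row of Cpt1a runs the other way.

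Acads, the short-chain acyl-CoA dehydrogenase gene, lies on the minus strand of chromosome 5 at positions 115110299 to 115119346 (GRCm38, the mm10 build). Its 250 bases before the start are shown because Acads had the largest log2 difference among the tested members. Those of Acadm, the medium-chain dehydrogenase gene at 153922357 to 153944632 on the minus strand of chromosome 3, are shown because Acadm was the only matched member with the nuclear receptor half-site AAGGTCA in this window. Both are from RefSeq on GRCm38.p6, printed 5′ to 3′ on the minus strand. Capitals mark CG dinucleotides in Acads, and in Acadm the match to AAGGTCA, which lies on the opposite strand from base -249.
Acads, chr5:115119347-115119596: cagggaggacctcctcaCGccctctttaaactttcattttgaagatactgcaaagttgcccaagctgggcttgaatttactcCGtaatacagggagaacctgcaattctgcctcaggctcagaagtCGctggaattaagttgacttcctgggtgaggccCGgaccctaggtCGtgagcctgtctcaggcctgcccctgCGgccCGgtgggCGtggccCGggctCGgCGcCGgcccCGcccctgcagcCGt
Acadm, chr3:153944644-153944893: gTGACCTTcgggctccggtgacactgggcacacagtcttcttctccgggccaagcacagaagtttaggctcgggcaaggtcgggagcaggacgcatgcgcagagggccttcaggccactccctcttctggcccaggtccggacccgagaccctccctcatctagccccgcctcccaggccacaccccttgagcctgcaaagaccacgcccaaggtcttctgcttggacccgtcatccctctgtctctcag
The table of promoters matched 28 of the 34 members with 31 windows. The PPAR response element, taken as a direct repeat of AGGTCA with 1 base of any kind between the copies and searched on both strands, was found in 0 of the 28 members and in 0.0335% of all 32851 windows of this length. The extended half-site TNAAGGTCA of the ERR receptors was found in 0 of the 28 and in 1.14% of all windows. The shorter AAGGTCA, which that half-site contains, was found in 1 member, Acadm, and in 4.08% of all windows. The members' windows had a median of 12 CG dinucleotides and 58.8% G and C, and all windows had medians of 6 and 52.4%. TATAAA was found in 1 member, in a window of Pparg, and in 12.4% of all windows.

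The carnitine shuttle moves acyl groups into the matrix, and its entry and exit enzymes differed in sign. Cpt1a, the outer-membrane carnitine palmitoyltransferase at the rate-controlling step, had a lowest, median and highest wild-type value of 569, 706 and 1088 normalised counts. In the knock-out it had 1168, 853, 1456, 827 and 1597 in libraries 1, 2, 3, 5 and 6. Of these 5 values, 3 exceeded every wild-type value, and the groups overlapped. The log2 difference was 0.61 with an SE of 0.25 and an adjusted p of 0.238 in limma, and it was 0.56 in numbers 1 to 3 against 0.66 in numbers 4 to 6.

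Cpt2, the inner-membrane partner that hands the acyl group back to CoA, had 232, 282 and 349 as its lowest, median and highest wild-type values. Its knock-out values were 229, 65.0, 186, 203 and 167. Every knock-out value lay below every wild-type value, although the highest of the first, 229, was close to the lowest of the second, 232. In log2 the difference was -0.85 with an SE of 0.35 and an adjusted p of 0.232, and without knock-out 2, the lowest library, it was -0.53. Within a library, the ratio of Cpt1a to Cpt2 normalised counts was 1.75 to 4.70 in wild type and 4.08 to 13.1 in the knock-out. It was lower in 5 of the wild-type libraries than in any knock-out library, and wild type 3, at 4.70, lay above knock-out 5, at 4.08. The carnitine-acylcarnitine carrier gene Slc25a20 ranged over 94.8 to 374 in wild type and 62.8 to 317 in the knock-out. Crat, which moves acetyl groups to carnitine, differed by -3.40 on the log2 scale in numbers 1 to 3 and by 0.81 in numbers 4 to 6.

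Of the 2 other genes for the outer-membrane enzyme, Cpt1b had no read in any of the 11 libraries. Of its exon bases, 81.4% are also given to the read-through gene model Gm44502, and the sources used here do not give how reads shared by 2 genes were counted. Cpt1c had 38 reads in 3 wild-type libraries and 22 in 2 knock-out libraries.

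The acyl-CoA dehydrogenases carry out the first oxidation, each for a range of chain lengths, and all 4 had log2 differences below 0. Acads had 13.4, 110 and 164 normalised counts as its lowest, median and highest wild-type values. The 5 knock-out libraries had 30.6, 18.9, 2.58, 10.3 and 2.93. Wild type 3 and 6, at 20.1 and 13.4, lay inside the knock-out range, and the other 4 wild-type libraries, at 78.4 to 164, lay above it. The whole knock-out group held 58 reads of Acads against 768 in wild type. The log2 difference was -2.73 with an SE of 0.86 and an adjusted p of 0.144 in limma, and it was -2.60 in numbers 1 to 3 against -3.07 in numbers 4 to 6. The authors' deposited table gives a log2 fold change of -1.67 at an adjusted p of 0.0166. DESeq2 with a beta prior, which draws fold changes towards 0, gave these same values, and without the prior it gave -2.86.

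Acadm had 1341, 2011 and 2795 as its lowest, median and highest wild-type values, and 1699, 1660.2, 1824, 1351 and 830.4 in the knock-out. All knock-out values but the lowest lay within the wild-type range. Its log2 difference between genotypes was -0.50 with an SE of 0.26 and an adjusted p of 0.324 in limma. Between numbers 4 to 6 and numbers 1 to 3, in the fit that holds genotype, it was -0.68 with an adjusted p of 0.0313. In that comparison of number sets 2 members were called lower in the upper numbers, Acadm and Etfa, against 4.69% of all genes tested. Acadl, the long-chain dehydrogenase gene, and Acadvl differed by -0.25 and -0.16 between genotypes. Acadvl differed by 0.54 in numbers 1 to 3 and by -1.04 in numbers 4 to 6.

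The later steps of the spiral are hydration, the second oxidation and thiolysis, and all 5 members of this group had log2 differences below 0, with a median of -0.63. Hadh, the short-chain hydroxyacyl-CoA dehydrogenase gene, had 805, 1006 and 1747 as its lowest, median and highest wild-type values. In the knock-out it had 600.4, 456, 369, 867 and 991. Knock-out 1 to 3 lay below every wild-type library, and knock-out 5 and 6 lay within the wild-type range. In log2 the difference was -0.88 with an SE of 0.31 and an adjusted p of 0.169. It was -1.52 in numbers 1 to 3 but -0.05 in numbers 4 to 6, and the test of that difference gave an adjusted p of 0.339 in limma.

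Acaa2, the mitochondrial thiolase gene, had 354, 616 and 1342 as its lowest, median and highest wild-type values. Its knock-out values were 246, 608, 198, 392 and 234. Wild type 1 and 2, at 1342 and 1332, stood far above the other 4, which ran from 354 to 672 and overlapped the knock-out. The log2 difference was -1.17 with an SE of 0.40 and an adjusted p of 0.158, and it was -1.78 in numbers 1 to 3 against -0.57 in numbers 4 to 6. Echs1, the enoyl-CoA hydratase gene, differed by -0.63 with an adjusted p of 0.246.

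Hadha and Hadhb encode the alpha and beta subunits of the mitochondrial trifunctional protein, which handles long chains. They lie head to head on chromosome 5, Hadha on the minus strand at 30118304 to 30155162 and Hadhb on the plus strand at 30155248 to 30184593. The 85 bases between them are shown because they lie before the starts of both genes, and capitals mark the CG dinucleotides, on the plus strand of GRCm38.p6.
Hadha to Hadhb, chr5:30155163-30155247: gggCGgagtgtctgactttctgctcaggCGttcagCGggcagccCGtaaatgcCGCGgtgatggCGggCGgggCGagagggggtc
Over all libraries the genotype difference was -0.55 with an SE of 0.31 for Hadha and -0.57 with an SE of 0.37 for Hadhb, and neither passed the test. Within the number sets the pair did not keep together: Hadha differed by -0.41 in the lower and -0.63 in the upper numbers, and Hadhb by -1.26 and 0.15. Their levels did not keep a fixed ratio between libraries. Hadhb normalised counts were 3.94 and 4.24 times those of Hadha in wild type 1 and 2, between 0.673 and 2.12 times in the other wild-type libraries, and between 0.976 and 2.58 times in the knock-out.

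Unsaturated fatty acids need isomerases and a reductase to move or remove their double bonds before they enter the spiral. All 4 genes of this group had log2 differences below 0 in both number sets, against 31.0% of all genes tested, and all 4 were lower at an unadjusted p under 0.05 in limma, against 10.5%. Eci1, an enoyl-CoA delta isomerase gene on chromosome 17, had 1119, 1727 and 2613 as its lowest, median and highest wild-type values. The 5 knock-out libraries had 1050.1, 1611, 1101, 992 and 505. Knock-out 2 lay within the wild-type range and the other 4 below it. In log2 the difference was -0.84 with an SE of 0.29 and an adjusted p of 0.164 in limma. With a term for the number sets it was -0.91 with an adjusted p of 0.0476.

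Eci2, the isomerase gene whose product is also found in peroxisomes, had 657, 1312 and 1630 as its lowest, median and highest wild-type values. In the knock-out it had 383, 1012, 798, 624 and 925. Wild type 6 was the lowest of its group and lay among the knock-out values, and the other 5 wild-type libraries lay above all of them. Its log2 difference was -0.77 with an SE of 0.30 and an adjusted p of 0.206. Decr1, the dienoyl-CoA reductase gene, had 557, 1100.0 and 1424 in wild type and 469, 850.2, 503, 424 and 764 in the knock-out. The log2 difference of Decr1 was -0.80 with an SE of 0.29 and an adjusted p of 0.186, and 3 knock-out libraries lay below all wild-type ones. Ech1, a dienoyl-CoA isomerase gene, had 2165, 4351 and 6911 in wild type and 2278, 4206, 2512, 2767 and 1750 in the knock-out. Its values overlapped, with a log2 difference of -0.74, an SE of 0.31 and an adjusted p of 0.233.

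The electron transfer flavoprotein carries electrons from the acyl-CoA dehydrogenases to Etfdh, which passes them to ubiquinone. Etfa, its alpha subunit gene, had 1086, 2616 and 4143 as its lowest, median and highest wild-type values, and 2372, 2158, 1170.3, 1612 and 986 in the knock-out. The values of wild type 1 to 3, 3431 to 4143, lay above all other libraries, and those of wild type 4 to 6 lay within the knock-out range. The log2 difference between genotypes was -0.60 with an SE of 0.35 and an adjusted p of 0.391, and that between upper and lower numbers was -0.95 with an adjusted p of 0.0352. The ratio of Etfb to Etfa normalised counts was 2.34 to 2.54 in wild type 1 to 3, 4.92 to 5.16 in wild type 4 to 6 and 2.17 to 4.71 in the knock-out. Etfb differed by -0.68 with an adjusted p of 0.259 and Etfdh by -0.05.

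Peroxisomal oxidation shortens chains that mitochondria cannot take. Hsd17b4, the D-bifunctional protein gene, had 164, 318 and 478 normalised counts as its lowest, median and highest wild-type values. Its knock-out values were 114, 115, 295, 163 and 104. Knock-out 3 lay within the wild-type range and the other 4 below it, and the log2 difference was -1.01 with an SE of 0.36 and an adjusted p of 0.179. Acaa1a, a peroxisomal thiolase gene, had 60.0, 132 and 234 in wild type and 30.6, 123, 25.8, 67.9 and 28.3 in the knock-out. Its groups overlapped at knock-out 2 and 5, with a log2 difference of -1.38, an SE of 0.53 and an adjusted p of 0.202. Acaa1b, the close copy of Acaa1a, was at 0 to 3.12 normalised counts, so reads that fit both copies could change either value. Acox3, a branched-chain acyl-CoA oxidase gene, differed by -1.65 and Ehhadh, the L-bifunctional enzyme gene, by 0.17, with adjusted p values of 0.259 and 0.920.

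Among the regulators, the PPAR receptors switch on genes of fatty acid oxidation when they bind lipids. Ppara had 2 wild-type reads and 1 knock-out read in all, and Ppard had 53 and 44. Pparg had 36.4 and 18.5 normalised counts in wild type 1 and 2 and 0 to 1.01 in wild type 3 to 6. Its knock-out values were 1.13, 3.55, 0, 0 and 0. Its 94 wild-type reads came almost all from wild type 1 and 2, which gave 70 and 22, and the exact two-sided permutation test over 462 placements of the libraries gave p = 0.379. Ppargc1a, the coactivator PGC-1 alpha, was the only regulator above the limit for testing, with 12.1 to 172 in wild type, 6.80 to 124 in the knock-out and a log2 difference of -0.45. Pdk4, which spares glucose when fatty acids are burned, had 66 knock-out reads, of which 65 came from knock-out 5.

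Ketone bodies are made and used through acetoacetyl-CoA. Acat1, the mitochondrial acetoacetyl-CoA thiolase gene on chromosome 9 at 53580522 to 53610382, had 1359, 1824 and 2991 normalised counts as its lowest, median and highest wild-type values. In the knock-out it had 1015, 1203, 963, 1027 and 1070.5. Every knock-out library lay below every wild-type library, and the SD was 90.7 in the knock-out against 703 in wild type. Acat1 had the lowest p of all members, with a log2 difference of -0.91, an SE of 0.24 and an adjusted p of 0.104 in limma. With a term for the number sets the adjusted p was 0.0380, and the authors' deposited table gives a log2 fold change of -0.91 at an adjusted p of 0.00768. The difference was -1.28 in numbers 1 to 3 but -0.53 in numbers 4 to 6, and the adjusted p for these to differ was 0.489. Acat1 is also a step of isoleucine breakdown and is not particular to ketone bodies.

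Oxct1, the transferase gene that activates acetoacetate for use, had 1156, 1524 and 1966 as its lowest, median and highest wild-type values. Its knock-out values were 848, 894, 1071, 1183 and 1509. Knock-out 1 to 3 lay below every wild-type library, and the log2 difference was -0.49 with an SE of 0.22 and an adjusted p of 0.259. Oxct1 lies on chromosome 15, 2.66 Mb from Osmr, and whether DNA linked to the Osmr allele differs there was not tested. Bdh1, the dehydrogenase gene that interconverts the 2 main ketone bodies, had 17.2, 26.1, 16.1, 61.3, 0 and 7.24 normalised counts in wild type 1 to 6. Its knock-out values were 0, 0, 2.58, 2.06 and 0. It was at or below 2.58 in all 5 knock-out libraries and above that in 5 of the 6 wild-type ones, with 4 reads against 166, and the exact two-sided permutation p was 0.0281. Of the 7 members below the limit for testing, 6 had reads and were compared in this way, and the other 5 gave exact p values of 0.379 to 1 without adjustment. The antisense gene Gm15743 shares 13.7% of the exon bases of Bdh1.

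**Figure D4:**
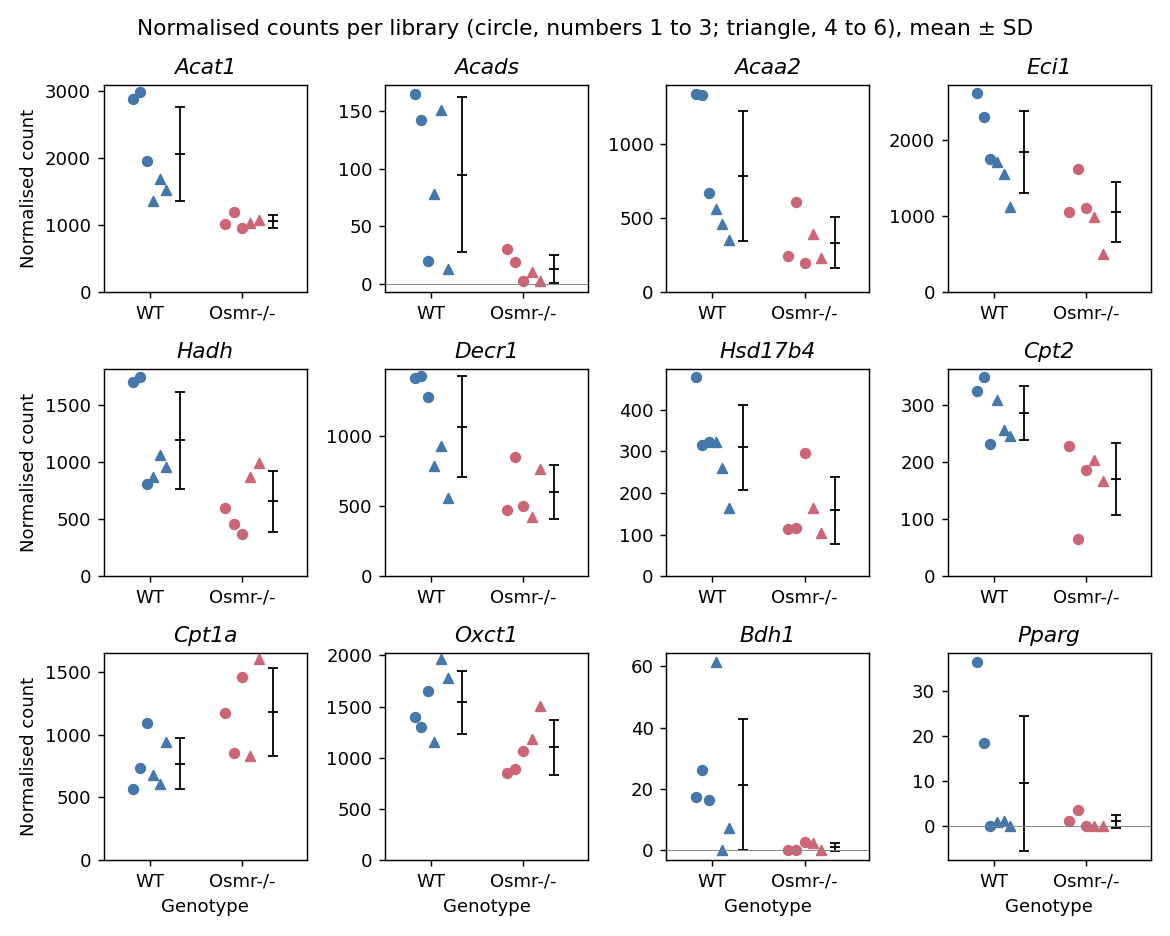
Normalised count in each library for 12 members (blue wild type, red Osmr-/-, circles for numbers 1 to 3, triangles for numbers 4 to 6), with the mean and SD of each group in black. The 5 knock-out values of Acat1 lie at 963 to 1203, below the lowest wild-type value of 1359, whereas the values of Cpt1a lean the other way and overlap.

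Within the sets of numbers, the median log2 difference of the 27 tested members was -1.03 in the lower numbers (1 to 3) and -0.53 in the upper (4 to 6). There were 24 members below 0 in the first, against 7035 of all 13358 genes tested, 22 in the second, against 6673, and 20 in both, against 31.0% of all genes. At an unadjusted p under 0.05 there were 14 in the lower numbers, against 22.0%, and 5 in the upper, against 10.4%. After adjustment 0 were called in either set. The test of whether the genotype difference itself differed between the sets called 0 members. Its lowest adjusted p was 0.339 in limma, with 5 members at an unadjusted p under 0.05 (Crat, Hadh, Hadhb, Etfdh and Acat1). Over all genes tested that test called 0 genes, and 1316, or 9.85%, had an unadjusted p under 0.05.

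**Figure D5:**
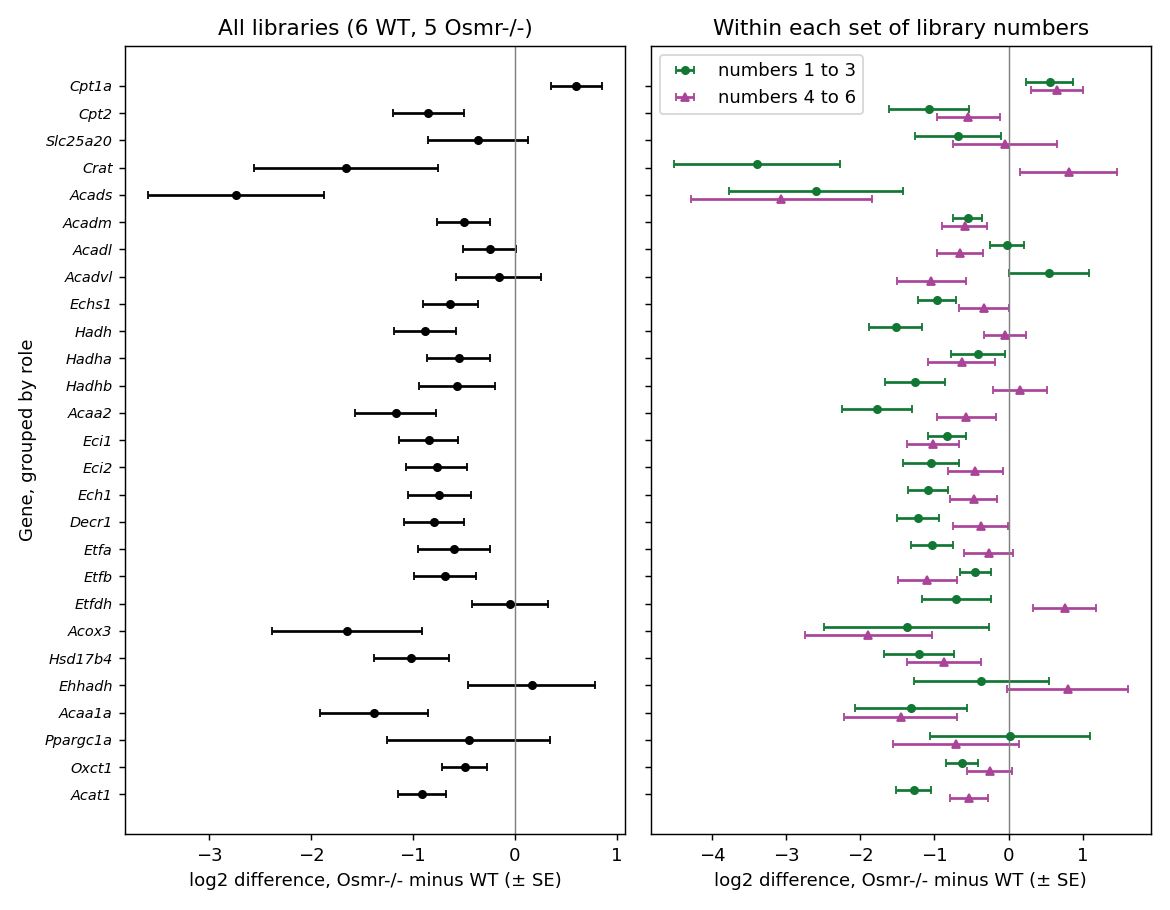
The log2 difference (Osmr-/- minus wild type) with its SE for the 27 tested members in all libraries (left) and within numbers 1 to 3 and numbers 4 to 6 (right). All but Cpt1a and Ehhadh lie below 0 on the left, and Crat, Hadhb, Etfdh, Ehhadh, Acadvl and Ppargc1a have opposite signs in the 2 sets on the right.

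The neighbouring genes of the pathway were taken from lists of 97 genes, of which 85 were tested. Of these, 47 had a log2 difference below 0 and the median was -0.10, against -0.68 for the members, and limma called 0 of them after adjustment. In the list of other ketone body genes, 3 of 5 tested genes lay below 0 with a median of -0.10. Slc16a1, the monocarboxylate carrier that moves ketone bodies and lactate, was higher, at 482 to 776 in wild type and 665 to 1276 in the knock-out. Its log2 difference was 0.70 with an adjusted p of 0.152, and 0.0347 in the authors' deposited table.

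Other lists did not all lean the same way as the members. In fatty acid synthesis 3 of 7 tested genes lay below 0 with a median of 0.32, and Acly, which makes cytosolic acetyl-CoA, and Scd2, a fatty acid desaturase, differed by 0.56 and 0.36. In fatty acid uptake and activation 4 of 10 lay below 0 with a median of 0.15, and the leading pair were Fabp4 and Slc27a4, at 2.02 and 1.48. Fabp4 is also a marker of fat and endothelium. Among 6 tested PPAR target genes 6 lay below 0, against 53.2% of all genes tested, with a median of -0.73. Fatty acid oxidation genes, which PPAR receptors also switch on, were listed elsewhere, so this is not the full set. The leading pair were Ucp2 and Pdk2, at -0.90 and -2.11, with adjusted p values of 0.273 and 0.275 in limma. Ucp2 had 3597 and 3083 normalised counts in wild type 1 and 2 and 509 to 1196 in wild type 3 to 6. Its knock-out values were 615 to 912. Pdk2 was low, at 7.05 to 100 in wild type and 0 to 45.3 in the knock-out. Among 18 other regulators 9 lay below 0 with a median of -0.05. Sirt3, the mitochondrial deacetylase, differed by -0.74 with an adjusted p of 0.149 in limma and 0.0373 in the authors' deposited table, and Nrip1, a corepressor, by 0.61.

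In the other acyl-CoA dehydrogenases and mitochondrial helpers, 9 of 17 lay below 0 with a median of -0.02, led by Hsd17b10 at -0.52 and Acadsb at -0.78. In the other peroxisomal genes, 8 of 13 lay below 0 with a median of -0.16, led by Hacl1 at -1.47 and Scp2 at -0.66. In lipolysis and lipophagy, 5 of 9 lay below 0 with a median of -0.05, led by Pnpla2, the main triglyceride lipase of lipid droplets, at -1.37 and Plin3 at -0.57. None of these values passed limma's adjusted threshold, and all these comparisons share the same 11 libraries as the members.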

How the data were processed

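Per the submitters' processing notes, the authors trimmed reads with Trimmomatic 0.36.6, checked them with FastQC 0.72, aligned them to mm10 with HISAT2 2.1.0, counted them per gene with HTSeq 0.9.1 and compared groups with DESeq2 (wrapper 2.11.40.6). Which annotation was used, and whether the counting used strand, is not given in these sources. The deposited signal is each gene's read count divided by the library's DESeq2 size factor. The authors also deposited log2 scale values (regularised logarithm and variance stabilised). Their deposited table without column names gives per gene a log2 fold change with its error, a Wald score, a p-value and an adjusted p-value. All 615 genes called in it have the sign of wild type minus knock-out, so its fold changes are printed with the sign turned.

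Dividing each value by what 1 read is worth in its library gave whole reads, within 1.4e-09 of a whole number. The main test was limma 3.58.1 (lmFit, eBayes with a trend) in R 4.3.3 on log2(normalised count + 1), fitted over the 13358 genes that reached 10 normalised counts in 5 or more libraries. The p-values are two-sided, with the Benjamini-Hochberg adjustment over all genes tested and a threshold of 0.05. Adjusted p-values in the text are limma's unless another tool or the authors' table is named, and log2(value + 1) understates differences of low genes. The scripts were tested on simulated data. Members below the filter got an exact two-sided permutation test with 462 placements (Python 3.11.15). The alternatives were the recovered reads in edgeR 4.0.16 or in DESeq2 1.42.0, other pseudocounts, filters, scalings, transforms and variance models, a term for the number sets, each number set alone, a replicate block by title number, and each library left out in turn. Positions and exon lengths are from GENCODE M21 (GRCm38, which is mm10) and promoter sequences from RefSeq (GRCm38.p6). Libraries are from separate mice, and reads amplified by PCR with no molecular identifiers do not each stand for a molecule.

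The members and all gene lists were chosen with earlier results of these data known. All members are accounted for. The value in every library, or the range of a group of 6, is given for the 12 tested members of lowest p, for those called in any fit counted, and for Cpt1a, Cpt2, Pparg and Oxct1. From each neighbouring list at most the 2 genes of lowest p are named. Some genes that this rule would name are not reported here.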

Additional observations from a re-analysis of the deposited data

Results flagged for a closer look

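Cpt2 in knock-out 2 had 65.0 normalised counts, far from the other 4 knock-out libraries, which had 167 to 229. The gap to its nearest neighbour was 0.748 of the whole range of the group. This was the 1 value singled out among 30 sets of wild-type or knock-out values of named members, and chance singles out about 1 in 20. Without knock-out 2 the log2 difference of Cpt2 was -0.53 with an adjusted p of 0.362 in limma, and every remaining knock-out value still lay below every wild-type value.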

How the results depend on the processing

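Over 28 alternatives, the number of members lower after adjustment was 0 in limma and edgeR fits other than the one with a term for the number sets, which gave 2, and it was 3 with DESeq2 and 2 with DESeq2 and a beta prior. The cause of these differences was not tested. The fit with a beta prior gave the values of the authors' deposited table for Acads and Acat1, so it is not a separate result. No alternative called a member higher. The median log2 difference was -1.03 in numbers 1 to 3 only, and between -0.60 and -0.82 when each library was left out, and the members below 0 numbered 24 to 26. The count of tested members without overlap was 2, and 3 without wild type 6 (Eci2 joins), without knock-out 2 (Eci1 joins) or without knock-out 3 (Hsd17b4 joins). Of 419 values of 15 named tested members under the alternatives, 413 kept their side of the threshold and their direction, 6 passed the threshold in addition and 0 turned direction. These 15 are mostly the members of lowest p. Over all 27 tested members, 6 took both signs among the fits: Crat (-3.40 to 0.81), Acadvl (-1.04 to 0.54), Hadhb (-1.26 to 0.15), Etfdh (-0.70 to 0.76), Ehhadh (-0.37 to 0.80) and Ppargc1a (-0.87 to 0.13). Same-numbered libraries correlated at 0.02 to 0.10 after subtraction of the group means, so single libraries showed little sign of pairing by title number. With title number as a replicate block, the median was -0.71, 26 members lay below 0 and 0 were called. Of the 5 knock-out libraries, 1 correlated best with the wild-type library of its own number. The best match lay within the same number set for all 5. It was wild type 2 or 3 for knock-out 1 to 3, and wild type 4 for knock-out 5 and 6. Depth limits the low members most: Acads rests on 58 reads over the knock-out group and Bdh1 on 4.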
